A study of Mus musculus with 12 samples.

Results

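The 7 genes described here are Hsd3b1 to Hsd3b6, the mouse 3-beta-hydroxysteroid dehydrogenase genes that lie side by side on chromosome 3, and Hsd17b2, the gene of 17-beta-hydroxysteroid dehydrogenase type 2. They are 7 of the 36047 genes into which the transcripts of the liver data were summed, and 4 of them, Hsd3b2, Hsd3b3, Hsd3b5 and Hsd17b2, passed the filter on low counts with 14670 genes in all. They were chosen by symbol, with their values across the diet groups already known, so the group differences of these genes are given as a description and no p-value is attached to them. Liver RNA came from 12 male C57Bl/6J mice, 5 to 6 months old, housed singly, deprived of food for 4 h before collection and killed after 7 days on 1 of 4 diets. RF.Ctrl mice ate a regular-fat control diet, RF.SAAR mice a regular-fat diet restricted in sulfur amino acids, HF.Ctrl mice a high-fat control diet and HF.SAAR mice a high-fat diet restricted in sulfur amino acids, with 3 mice in each group. Every diet, control diets included, was free of cysteine and held the same amount of nitrogen, and the SAAR diets held less methionine, with glutamic acid in its place. The regular-fat diets came from Dyets and the high-fat diets from Research Diets, so fat level and supplier cannot be told apart. The paper states that mice of the study drank deuterium-labeled water. All mice were male.

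Enzymes of the 3-beta family act on the hydroxyl or keto group at carbon 3 of the steroid nucleus. Some of them oxidize it and shift a double bond, the step that turns pregnenolone into progesterone in steroid-producing glands, while others, Hsd3b5 among them, reduce active 3-keto steroids and are known from the livers of adult male mice. Hsd17b2 oxidizes testosterone and estradiol to weaker steroids and is known from liver, intestine and placenta. In rodent liver many enzymes of steroid and drug turnover differ between the sexes under the pattern of growth hormone secretion.

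The Hsd3b genes lie on the minus strand of GRCm38 chromosome 3 between 98499071 and 98859794, a stretch of 361 kb that also holds several unprocessed pseudogenes. Hsd3b4 occupies chr3:98499071-98510514, Hsd3b5 chr3:98618634-98630252, Hsd3b2 chr3:98709255-98724543, Hsd3b3 chr3:98741523-98763127, Hsd3b6 chr3:98805504-98814443 and Hsd3b1 chr3:98852194-98859794. Hsd17b2 lies on the plus strand of chromosome 8 at chr8:117701904-117759027. All 7 are annotated as protein coding. The 250 bases before the RefSeq transcription start of the 3 Hsd3b genes measured in these livers are shown because they are the sequences in which the genes could be compared outside the transcripts. They are from RefSeq, build GRCm38.p6, minus strand, 5′ to 3′, and the capitals mark the longest run of bases that Hsd3b5 and Hsd3b3 have in common, 24 bases long. The window is chr3:98645535-98645784 for Hsd3b5, chr3:98763129-98763378 for Hsd3b3 and chr3:98724544-98724793 for Hsd3b2.
Hsd3b5: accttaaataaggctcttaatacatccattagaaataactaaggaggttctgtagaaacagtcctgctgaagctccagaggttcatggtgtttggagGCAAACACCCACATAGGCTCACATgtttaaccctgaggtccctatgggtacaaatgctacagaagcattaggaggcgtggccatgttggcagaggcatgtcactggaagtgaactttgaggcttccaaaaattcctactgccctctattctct
Hsd3b3: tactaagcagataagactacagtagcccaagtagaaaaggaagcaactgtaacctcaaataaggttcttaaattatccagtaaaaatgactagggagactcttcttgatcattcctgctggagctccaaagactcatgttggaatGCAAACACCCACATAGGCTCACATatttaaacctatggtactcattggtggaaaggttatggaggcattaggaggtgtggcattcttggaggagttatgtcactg
Hsd3b2: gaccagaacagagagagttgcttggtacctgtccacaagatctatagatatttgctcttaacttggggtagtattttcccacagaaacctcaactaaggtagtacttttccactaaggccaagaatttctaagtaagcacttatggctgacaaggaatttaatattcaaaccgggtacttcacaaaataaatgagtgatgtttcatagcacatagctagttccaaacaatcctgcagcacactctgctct

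The windows of Hsd3b5 and Hsd3b3 aligned over 202 columns with 74.8% identical bases, and the shared run lay 153 to 130 bases before the start of Hsd3b5 and 105 to 82 bases before that of Hsd3b3. The window of Hsd3b2 aligned with that of Hsd3b5 over 31 columns and with that of Hsd3b3 over 15 columns. In the other pairs among the 6 genes the aligned stretch was 8 to 23 columns. RefSeq gives Hsd3b3 a second start, whose 250-base window matched that of the first in 248 of 249 aligned columns. The RefSeq start of Hsd3b5 lies upstream of the end of the gene in the annotation used for the counts, so the printed window does not border the first exon of the counted transcript. No sequence of this kind is shown for Hsd17b2. The letters TTCNNNGAA, a form of the site bound by STAT5, the factor that carries the growth hormone signal, read the same on both strands and were absent from the windows of Hsd3b2, Hsd3b3 and Hsd3b5. They occurred in 7.02% of the 32851 RefSeq windows of this length and in that of Hsd3b1. TGATGNAA, the core of amino acid response elements, was searched on both strands, occurred in 3.45% of windows and was absent from those of all 6 Hsd3b genes. TTGCATCA, a composite site of C/EBP factors and ATF4 whose reverse complement is a case of the former motif, occurred in 0.791% of windows and likewise in none of the 6.

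Because the Hsd3b genes resemble each other, the share of sequence that is particular to each gene was counted in words of 31 bases, the default word length by which kallisto assigns reads, over both strands of 116728 annotated transcripts. Of the words of Hsd17b2, 98.7% occurred in no other gene. The share was 88.2% for Hsd3b3, 87.0% for Hsd3b1, 71.0% for Hsd3b6, 65.9% for Hsd3b5 and 62.4% for Hsd3b2. Every word of Hsd3b4 also occurred in Gm10681, a neighboring protein-coding gene, so reads of that pair cannot be told apart. Hsd3b2 and Hsd3b3 had 545 words in common, and the most abundant transcripts of these genes were 93.2% identical over 1491 aligned columns. Hsd3b5 was closer to Hsd3b4, with 92.7% identity over 1555 columns, than to Hsd3b3, with 80.0% over 1174 columns. Estimated counts summed by gene were whole numbers, within 0.05, in 12 of 12 mice for Hsd17b2 and in 11 of 12 for Hsd3b5, but in 1 of 12 for Hsd3b2 and 2 of 12 for Hsd3b3, so reads were divided between Hsd3b2, Hsd3b3 and other genes. Zfp697 runs over the cluster on the plus strand and overlaps 99 exon bases of the most abundant transcript of Hsd3b2 and 228 of that of Hsd3b3. Whether the reads were assigned by strand is not given in the sources used here, and Zfp697 itself had 31.1 to 71.2 estimated counts per mouse.

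**Figure D1:**
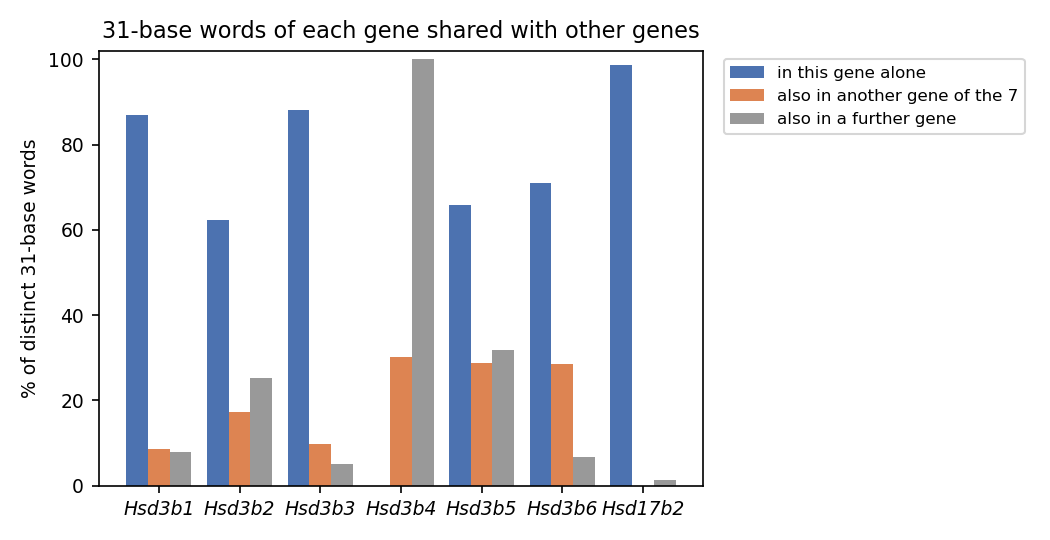
Share of the distinct 31-base words of each gene (y axis, percent) found in that gene alone, in another of the 7 genes, or in a further gene. The last 2 classes may overlap. Hsd17b2 stands at 98.7% in the first class and Hsd3b4 at 0%.

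Total estimated counts ranged from 16203094 to 21230092 per mouse. Levels are given as normalized CPM, in which counts are scaled by library size and edgeR's TMM factors. The 10 hepatocyte markers summed to 99421 to 114922 normalized CPM in the mice of RF.Ctrl, 90079 to 99181 in RF.SAAR, 96379 to 109648 in HF.Ctrl and 92592 to 103512 in HF.SAAR, so the regular-fat groups lay apart by a narrow margin, and 0 of the 10 were called by edgeR in either SAAR comparison. The 5 cholangiocyte markers summed to 42.9 to 62.0 and 42.9 to 58.0 in the Ctrl groups and to 36.0 to 42.9 and 35.2 to 38.5 in the SAAR groups. The part of these shifts in the results was not tested. Genes of the exocrine pancreas were present in several libraries, with 20 markers summing to between 40.0 and 16803 normalized CPM and the highest sum in HF.SAAR mouse 3. Genes of the adrenal cortex stood out in RF.SAAR mouse 3 and HF.SAAR mouse 3, and the edgeR fit was repeated without them.

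On the length-scaled TPM scale, on which levels of different genes can be compared, Hsd3b3 and Hsd3b5 were the most abundant of the 7 genes. Their mean levels over the 12 mice were 197 ± 46.6 TPM and 195 ± 69.0 TPM (SD, n = 12), which did not differ beyond their spread, but their order by group mean was not the same under both diets. Hsd3b5 was the higher in RF.Ctrl, at 267 ± 11 against 237 ± 44.5 TPM, and in HF.Ctrl, at 240 ± 14.4 against 213 ± 42.6 TPM (SD, n = 3). Hsd3b3 was the higher in RF.SAAR, at 154 ± 18.4 against 145 ± 51.5 TPM, and in HF.SAAR, at 184 ± 44.9 against 129 ± 45.1 TPM, and the ranges of both genes overlapped in each of the 4 groups. Compared within each mouse, Hsd3b5 was the higher in every RF.Ctrl mouse and Hsd3b3 in every HF.SAAR mouse. In RF.SAAR and HF.Ctrl the order differed between mice. Hsd17b2 followed with 127 ± 19.5 TPM and Hsd3b2 with 14.3 ± 5.41 TPM. By mean TPM over the 12 mice of all groups, Hsd3b3 ranked 518 and Hsd3b5 ranked 521 among the 14670 genes tested, while Hsd17b2 ranked 756 and Hsd3b2 ranked 3986. For scale, Hsd3b7, the 3-beta dehydrogenase of bile acid synthesis, lay between 296 and 456 TPM. Between groups, TPM values carry no TMM factors. The summed TPM of the 6 Hsd3b genes was 523 ± 56.4 in RF.Ctrl, 324 ± 79.0 in RF.SAAR, 472 ± 57.9 in HF.Ctrl and 326 ± 91.0 in HF.SAAR (SD, n = 3 each). Hsd3b5 made up 48.7 to 55.5% of that sum in RF.Ctrl and 46.9 to 55.8% in HF.Ctrl, against 36.7 to 48.1% in RF.SAAR and 37.1 to 43.2% in HF.SAAR. Hsd3b1 held 11.6% of the sum in RF.SAAR mouse 3. In the SAAR mice without adrenal signal the summed level was 360 and 233 TPM at regular fat and 348 and 226 TPM at high fat.

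Under sulfur amino acid restriction all 4 measured genes were lower at both levels of dietary fat. At regular fat, RF.SAAR vs. RF.Ctrl, the 4 genes were called lower at a Benjamini-Hochberg adjusted p under 0.05 in the edgeR quasi-likelihood fit, where 0.879% of all genes tested were called lower. At high fat these 4 genes were again called lower, against 0.961% of all genes, and 0.477% of all genes were called lower in both comparisons. In each comparison the highest SAAR mouse lay below the lowest Ctrl mouse for all 4 genes, as it did for 9.71% of all genes in the regular-fat groups and 8.96% in the high-fat groups. These shares are the background for the counts, and since the genes were chosen with these values in view nothing is read from them. The TPM scale takes effective length into account but does not carry the TMM factors. On it the groups overlapped at high fat for Hsd3b3, with 132 to 211 TPM in HF.SAAR and 177 to 260 in HF.Ctrl. They overlapped as well for Hsd17b2, with 89.2 to 134 and 129 to 134 TPM, but not for Hsd3b2 or Hsd3b5. In the edgeR fit with offsets for effective length, and in that scaled by library size alone, the high-fat call was lost for Hsd3b3 and kept for Hsd17b2. Beyond these fits, the parts of length and of TMM scaling in the overlap on the TPM scale were not tested. In bulk liver RNA, fewer cells that express a gene and less of its RNA per cell cannot be told apart.

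Hsd3b5, the male liver 3-keto steroid reductase, stood at 349, 331 and 353 normalized CPM in the RF.Ctrl mice and at 174, 99.0 and 185 in the RF.SAAR mice. In HF.Ctrl it stood at 320, 393 and 312 normalized CPM and in HF.SAAR at 139, 108 and 183. No SAAR mouse reached a Ctrl mouse, and the SAAR mice spread more widely, with a coefficient of variation of 30.7% in RF.SAAR against 3.43% in RF.Ctrl and of 26.2% in HF.SAAR against 12.9% in HF.Ctrl. The fitted log2 fold change was -1.17 (SE 0.23) at regular fat and -1.25 (SE 0.23) at high fat, so that the level fell by 55.6% and 58.0%. Without RF.SAAR mouse 3 and HF.SAAR mouse 3 these log2 fold changes were -1.32 and -1.47, both still called. The call at regular fat was lost without any 1 of the 3 RF.Ctrl mice or without RF.SAAR mouse 1, and the call at high fat was lost without HF.SAAR mouse 1 or mouse 2. Among 11 other alternatives the regular-fat call was lost with scaling by library size alone, with the compared groups fitted alone and in the test by transcript, and the high-fat call in the test by transcript. Among the genes tested the within-group SD of Hsd3b5, 0.326 on the log2 scale, stood at percentile 67.5, while those of Hsd3b2, Hsd3b3 and Hsd17b2, 0.167, 0.154 and 0.147, lay below the median of 0.231.

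Hsd3b3, a 3-beta dehydrogenase of liver and kidney, had 210, 242 and 283 normalized CPM in RF.Ctrl and 142, 138 and 129 in RF.SAAR. At high fat the values were 242, 248 and 261 in HF.Ctrl and 185, 145 and 183 in HF.SAAR. The groups did not overlap in either comparison, and the difference was the smaller of the pair at high fat. The log2 fold change was -0.85 (SE 0.12) in RF.SAAR vs. RF.Ctrl and -0.55 (SE 0.12) in HF.SAAR vs. HF.Ctrl, and Hsd3b3 fell by 44.4% and 31.6%. Of the 4 genes it was the only one for which every HF.SAAR mouse lay above every RF.SAAR mouse, with a log2 fold change of 0.33 (SE 0.12) between these groups that was not called, a separation that 5.47% of all genes showed. The interaction of diet and fat for Hsd3b3 was 0.30 (SE 0.17) on the log2 scale and was not called either. The high-fat call of Hsd3b3 was lost without RF.Ctrl mouse 2 and without any 1 of the 6 high-fat mice, with log2 fold changes of -0.61 to -0.45, as well as without both mice with adrenal signal (-0.60), whereas the regular-fat call was kept in all 12 such fits. The high-fat call was also lost with scaling by library size alone (-0.38), with offsets for effective length, with the compared groups fitted alone and with the most abundant transcript, so that it was kept in 6 of 11 alternatives, and the regular-fat call was lost with the most abundant transcript.

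Hsd3b2, the least abundant of the 4, stood at 47.6, 45.9 and 48.6 normalized CPM in RF.Ctrl and at 23.3, 20.4 and 19.8 in RF.SAAR. The HF.Ctrl mice had 47.6, 49.3 and 66.5 normalized CPM and the HF.SAAR mice 20.6, 25.2 and 24.4. The RF.Ctrl mice lay within a few CPM of each other, and HF.Ctrl mouse 3 was the highest of all mice. Log2 fold changes were -1.16 (SE 0.13) at regular fat and -1.22 (SE 0.13) at high fat, and the level of Hsd3b2 fell by 55.3% and 57.0%. Without HF.Ctrl mouse 3 the high-fat value was -1.05, and without both mice with adrenal signal the values were -1.11 and -1.25. Hsd3b2 was called in both comparisons in all 12 fits that left out a mouse and in all 11 other alternatives.

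Hsd17b2, which inactivates testosterone and estradiol, had 156, 178 and 166 normalized CPM in RF.Ctrl and 105, 116 and 112 in RF.SAAR. At high fat it had 162, 193 and 140 in HF.Ctrl and 101, 101 and 120 in HF.SAAR. The lowest Ctrl mouse and the highest SAAR mouse were 140 and 120, both at high fat, and the groups did not overlap. The log2 fold change was -0.59 (SE 0.12) at regular fat and -0.62 (SE 0.12) at high fat, a level that fell by 33.4% and 35.0%. The regular-fat call was lost without any 1 of the 6 regular-fat mice or HF.Ctrl mouse 1, and without both mice with adrenal signal (-0.58). The high-fat call was lost without HF.Ctrl mouse 1 or 2 or HF.SAAR mouse 1 or 2. Both calls were lost with the most abundant transcript, that at regular fat also with scaling by library size alone and that at high fat also with the compared groups fitted alone. The direction stayed the same in all of these fits. With a mouse left out the log2 fold change lay between -0.63 and -0.53 at regular fat and between -0.72 and -0.49 at high fat. In the 11 other alternatives it lay between -0.59 and -0.42 at regular fat and between -0.71 and -0.44 at high fat.

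**Figure D2:**
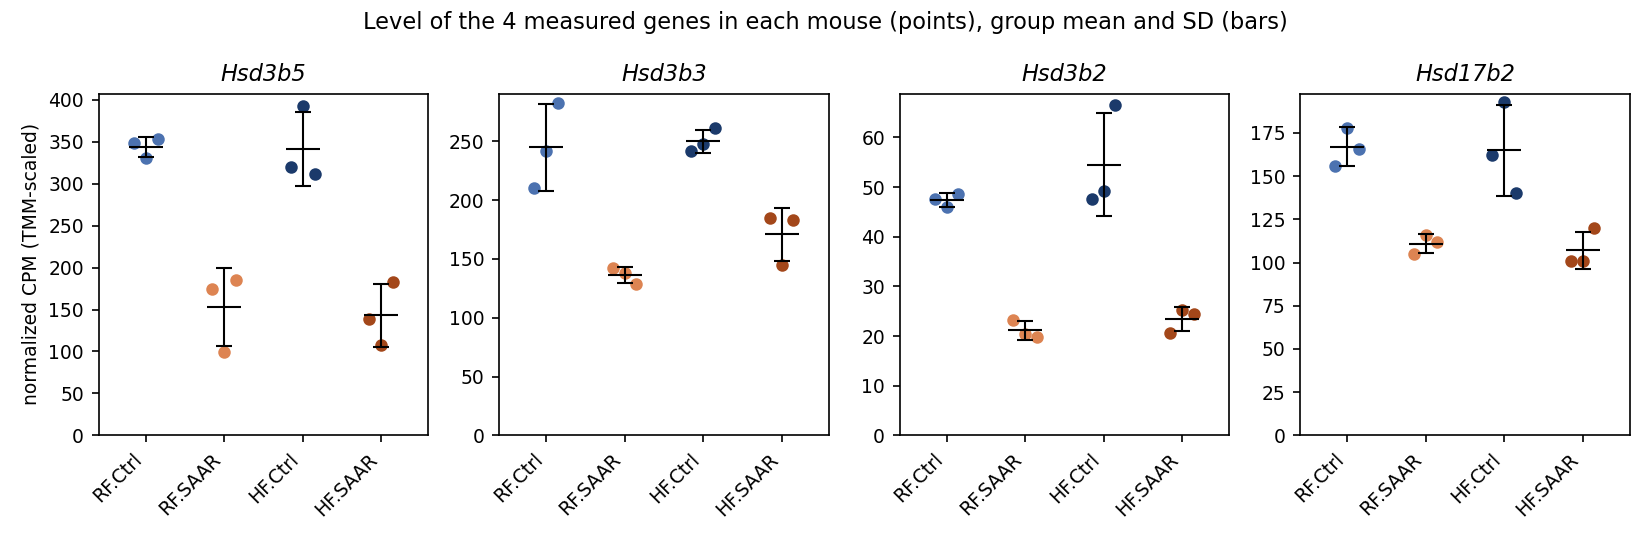
Level of each gene in each mouse (points) in normalized CPM (y axis, from 0) by diet group (x axis), with the group mean and SD over 3 mice as black bars. For each gene the 3 SAAR mice lie below the 3 Ctrl mice at the same level of dietary fat, for example at 99.0 to 185 against 331 to 353 for Hsd3b5 at regular fat.

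Since reads may be divided among the Hsd3b paralogs, the counts of the 6 Hsd3b genes and 8 neighboring paralogs and pseudogenes were also summed into 1 feature of 14 genes. The sum had a log2 fold change of -0.95 (SE 0.15) in RF.SAAR vs. RF.Ctrl and -0.92 (SE 0.15) in HF.SAAR vs. HF.Ctrl and was called lower in both. Since Hsd3b1 adds many counts in both mice with adrenal signal, the fit was repeated. Without those mice the values were -1.08 (SE 0.14) and -1.06 (SE 0.14), and with Hsd3b1 left out of the sum they were -1.04 (SE 0.13) and -0.94 (SE 0.13), all called lower. The sum is a measure that the division of reads among these 14 genes does not enter. It does not cover division with genes outside the sum. Hsd3b2 had 378 words in common with Gm13722 and Hsd3b3 had 231 with Zfp697, neither of which was summed. Between the levels of fat the sum had a log2 fold change of 0.05 (SE 0.15) in SAAR mice and 0.02 (SE 0.15) in Ctrl mice, neither of which was called.

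Between the levels of dietary fat none of the 4 genes was called. In HF.Ctrl vs. RF.Ctrl the log2 fold changes were 0.20 (SE 0.13) for Hsd3b2, 0.03 (SE 0.12) for Hsd3b3, -0.01 (SE 0.22) for Hsd3b5 and -0.02 (SE 0.12) for Hsd17b2. In HF.SAAR vs. RF.SAAR those of Hsd3b2, Hsd3b5 and Hsd17b2 were 0.14 (SE 0.13), -0.09 (SE 0.22) and -0.05 (SE 0.12), and their groups overlapped. None of the 4 was called in these comparisons or in the interaction by edgeR or by DESeq2. By edgeR 0% of all genes were called between the Ctrl groups, 0.0477% between the SAAR groups and 0.00682% in the interaction, while 526, 820 and 462 genes had an unadjusted p under 0.05. These comparisons share their mice with the diet comparisons, and in them the level of fat cannot be told apart from the supplier of the diet.

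**Figure D3:**
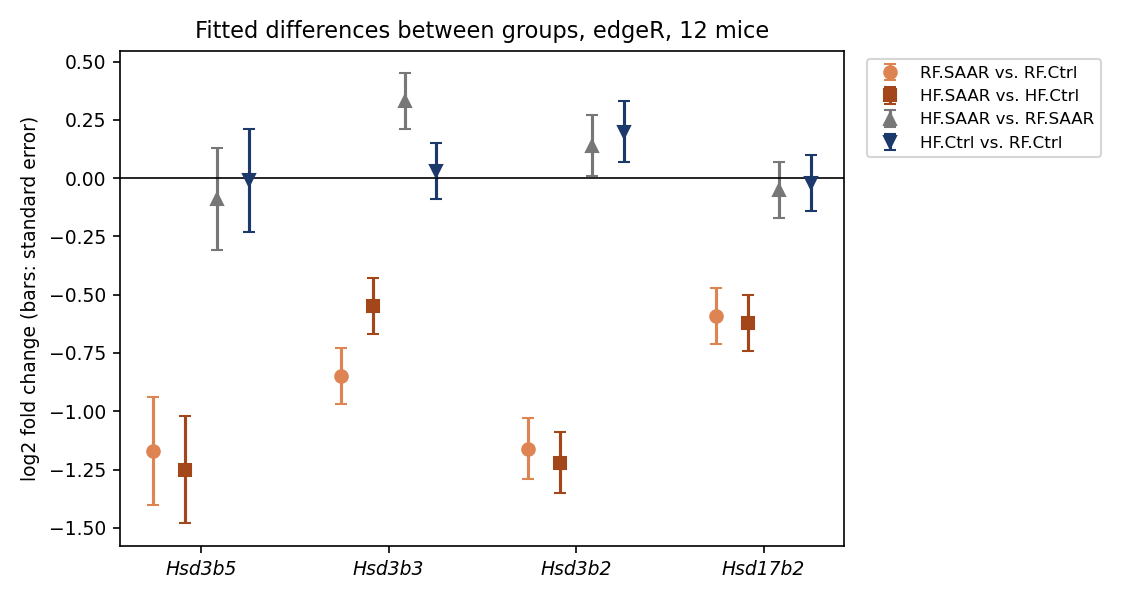
Fitted log2 fold change (y axis) of the 4 genes in the 4 comparisons of groups, with bars of 1 standard error from the edgeR fit over 12 mice. The SAAR vs. Ctrl values lie between -1.25 and -0.55, and the comparisons of dietary fat between -0.09 and 0.33.

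The make-up of each gene by transcript was compared as a measure that the choice of the genes did not use. Hsd3b2-202 held 72.6 to 80.9% of the counts of Hsd3b2 and Hsd3b2-201 most of the rest. The most abundant transcript of Hsd3b3 held 68.9 to 79.3% of its counts, followed by Hsd3b3-203 and Hsd3b3-206, while Hsd17b2-201 held at least 98.8% of those of Hsd17b2 and Hsd3b5 has a single transcript. The share of Hsd3b3-203 was 14.1 ± 1.53% in RF.Ctrl and 15.5 ± 0.972% in RF.SAAR, 11.7 ± 2.32% in HF.Ctrl and 13.5 ± 1.58% in HF.SAAR (SD, n = 3). None of 8 transcript shares passed the test of SAAR against Ctrl mice within the levels of fat, with adjusted p-values of 0.23 to 0.635 (two-sided exact permutation test over 400 relabelings, Benjamini-Hochberg over the 8 shares, smallest possible raw p 0.005). The mean differences ranged from -1.62 percentage points for Hsd3b3-206 to 1.61 for Hsd3b3-203. The test averages the difference over both levels of fat, so it cannot see shifts of opposite sign. Hsd17b2-202, a minor transcript, held 0.414 to 0.486% of counts in RF.Ctrl and 0.82 to 0.978% in RF.SAAR. At high fat its mean share was 0.808% in HF.Ctrl and 0.637% in HF.SAAR.

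Hsd3b1, the family member of adrenal glands and gonads, was at the edge of detection in 10 of the 12 livers and high in the other two. It had 1 to 3 estimated counts in those 10 mice, 1101 in RF.SAAR mouse 3 and 217 in HF.SAAR mouse 3. Both high mice were SAAR mice, but the other 4 SAAR mice had 1 count each, as low as the lowest Ctrl mice, and Hsd3b1 did not pass the filter on low counts. In the same 2 libraries the defining genes of the adrenal cortex were high too. Star, which brings cholesterol into mitochondria, had 1994 and 379 estimated counts there against 27 to 56 in the other 10 mice. Cyp11b1, which makes corticosterone, had 624 and 77.2 against 0 to 3.02, Cyp11a1, the cholesterol side-chain cleavage enzyme, had 707 and 180 against 3 to 14, and Cyp21a1 had 686 and 113 against 6.15 to 21. Of the 9 adrenal markers, Scarb1, which liver also expresses, stood out least, with 2281 and 2886 against 1709 to 2445. Summed over the 9 markers the level in normalized CPM was 103 to 125 in RF.Ctrl mice, 114 to 355 in RF.SAAR, 118 to 129 in HF.Ctrl and 132 to 176 in HF.SAAR, and 0 to 4 markers were at 0 in a mouse. The 6 Leydig cell markers, which include Star, Cyp11a1 and Cyp17a1, summed to 7.83 to 10.8 normalized CPM in RF.Ctrl mice and 21.5 to 153 in RF.SAAR. At high fat they summed to 5.94 to 7.28 in HF.Ctrl and 33.3 to 64.2 in HF.SAAR, higher in every SAAR mouse. In the 10 mice without adrenal signal the sum varied mostly by Cyp17a1, a gene also on the female-biased liver list, with 26 to 1141 estimated counts. There Star had 27 to 56, Cyp11a1 3 to 14, Insl3 1.48 to 17 and Lhcgr 13.9 to 28. The testicular 17-beta dehydrogenase Hsd17b3 was at 0 in all 12 mice. The sum of 8 intestinal markers also ranged widely in SAAR mice, at 145 to 648 and 286 to 693 normalized CPM against 205 to 213 and 189 to 227 in the Ctrl groups. In RF.SAAR mouse 2, which had the sum of 648, 5 of the 8 were at 0, as in HF.Ctrl mouse 1 with a sum of 206. In HF.SAAR mouse 3, which had the highest sum of 693, 2 were at 0. Only 3 of the 8 were tested, with median log2 fold changes of 0.10 and -0.24 and 0 called in either SAAR comparison. The part of other tissues in the Hsd3b1 values was not tested.

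Hsd3b6, known from placenta and the outer adrenal cortex, had 10.1 estimated counts in RF.SAAR mouse 3 and 0 to 1.22 in the other 11 mice. Hsd3b4 had 0 to 3.22 estimated counts, and since all of its words occur in Gm10681 its reads may come from either gene. For counting error alone a count of 0 allows up to 3 counts. In the livers without adrenal signal Hsd3b6 stayed below that level, and the estimate of Hsd3b4 stood above it in RF.Ctrl mouse 3 alone, at 3.22. The estimate of Gm10681 also reached 3.22 at most. Since reads of this pair may be divided between both genes, the level does not apply to their summed reads.

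**Figure D4:**
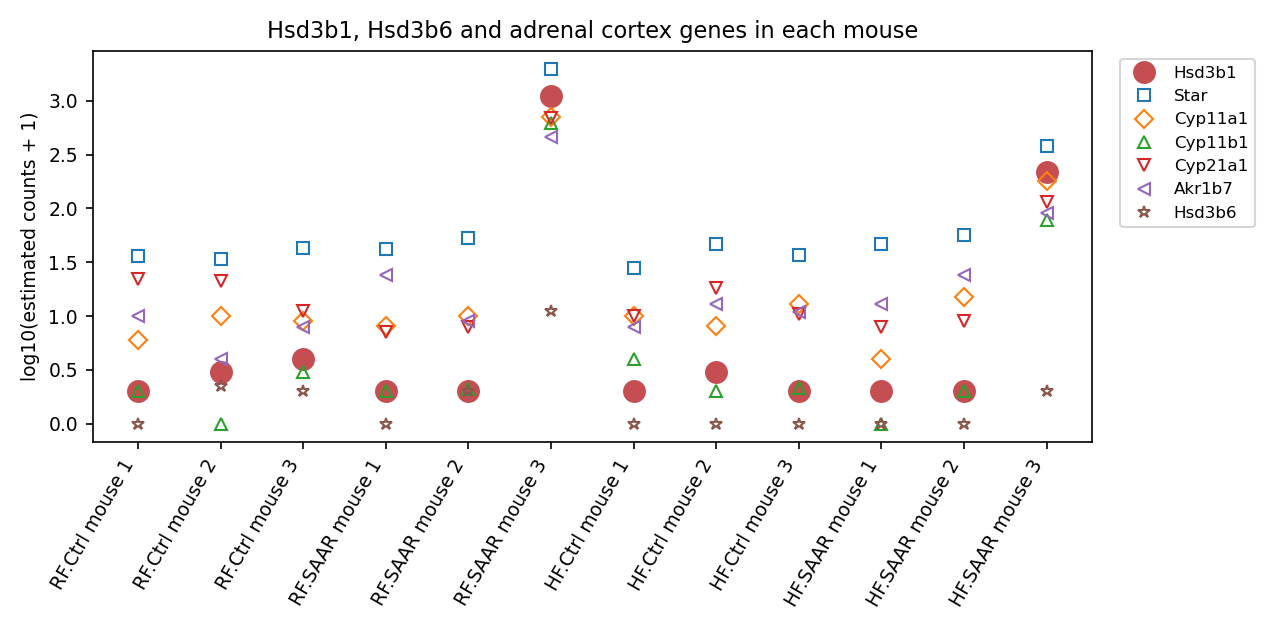
Estimated counts of Hsd3b1 (filled circles), Hsd3b6 (stars) and 5 adrenal cortex genes in each of the 12 mice, on a log10(count + 1) axis. Hsd3b1 stands at 1101 counts in RF.SAAR mouse 3 and 217 in HF.SAAR mouse 3, where the adrenal genes are also high, and at 1 to 3 in the other 10 mice.

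The gene lists that follow were written with earlier results of these data known, so their counts are a description. Of the other 3-beta dehydrogenases, Hsd3b7, Nsdhl of cholesterol synthesis and Sdr42e1 were tested and 0 of 3 were called by edgeR in either SAAR comparison, with medians of -0.23 and -0.31 on the log2 scale against -0.001 over all genes in both comparisons. Of the 12 other 17-beta dehydrogenases and related enzymes tested, 1 was called higher at regular fat and 2 at high fat, against 0.600% and 1.01% of all genes, and 0 lower. Without both mice with adrenal signal these counts were 0 and 1. Hsd17b13, a protein of lipid droplets, rose at regular fat from 455 ± 27.6 normalized CPM to 659 ± 42.2 (SD, n = 3, log2 fold change 0.54, SE 0.096, edgeR adjusted p = 0.0138). At high fat it rose from 438 ± 42.9 to 724 ± 28.5 (log2 fold change 0.72, SE 0.096, edgeR adjusted p = 0.00135). Cbr1, a carbonyl reductase, rose at high fat (log2 fold change 0.77, SE 0.15, edgeR adjusted p = 0.0153) and had 0.48 (SE 0.14, adjusted p = 0.126) at regular fat. The medians of these 12 genes were -0.08 and -0.06.

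Among 12 tested steroid reductases and partners, Srd5a1, the liver form of steroid 5-alpha-reductase, was called lower in both comparisons, as were 0.477% of all genes. Its level fell from 85.2 ± 13.7 to 48.9 ± 9.06 normalized CPM at regular fat (SD, n = 3, log2 fold change -0.80, SE 0.17, edgeR adjusted p = 0.0308) and from 78.3 ± 10.3 to 41.2 ± 6.98 at high fat (-0.93, SE 0.17, adjusted p = 0.0128). Akr1c19, an aldo-keto reductase, was called higher at high fat alone (0.51, SE 0.12, edgeR adjusted p = 0.0363), the difference between the fat levels being 0.11 (SE 0.16) and not called. Hsd11b1, which regenerates glucocorticoid, had log2 fold changes of -0.17 and 0.14 and was not called. Of 7 tested conjugation genes, Ugt2b1, a glucuronosyltransferase, was called lower in both comparisons, with -0.85 (SE 0.14, edgeR adjusted p = 0.00819) and -0.82 (SE 0.14, edgeR adjusted p = 0.00791). Of 7 tested receptors and carriers, Serpina6, the corticosteroid-binding globulin, rose at high fat, from 110 ± 15 to 197 ± 27.5 normalized CPM (0.84, SE 0.19, edgeR adjusted p = 0.0446), and none was called at regular fat. Without both mice with adrenal signal, 0 and 1 of the reductases and 1 and 1 of the conjugation genes were called lower, and 0 reductases, receptors or carriers higher.

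Of 8 tested genes of steroid synthesis, Cyp17a1, whose enzyme makes androgen precursors in testis, was called higher in both comparisons. Over all genes 0.600% were called higher at regular fat and 1.01% at high fat. It rose from 4.80 ± 1.32 to 18.1 ± 6.26 normalized CPM at regular fat (SD, n = 3, log2 fold change 1.91, SE 0.39, edgeR adjusted p = 0.0408) and from 2.18 ± 0.520 to 37.1 ± 19.1 at high fat (4.08, SE 0.43, adjusted p = 0.000909). The 2 libraries with adrenal signal were not its highest, since HF.SAAR mouse 3 had 499 estimated counts and RF.SAAR mouse 3 had 239, against up to 1141 in the other mice. The list's median log2 fold changes of 1.25 and 1.04 were 0.10 and -0.03 without these 2 mice, and 1 gene was called higher in each comparison either way.

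Hsd3b5 is itself known as a male-biased liver gene. Of 25 other male-biased liver genes, all tested, 8 were called lower at regular fat and 13 at high fat, against 0.879% and 0.961% of all genes, and 0 higher. Their medians were -0.55 and -1.26, and 22 and 25 of them had values below 0. Among the 13 called at high fat were Mup1, Mup7, Mup12, Mup20 and Mup21, paralogs that share reads, so the 13 are not separate measurements. Of the Mup genes listed, Mup21 alone was called at regular fat. This list too was written with earlier results of these data known. Selenbp2, a selenium-binding protein, fell from 1030 ± 189 to 262 ± 58.0 normalized CPM at regular fat (SD, n = 3, log2 fold change -1.98, SE 0.27, edgeR adjusted p = 0.00494) and from 1234 ± 361 to 142 ± 36.3 at high fat (-3.12, SE 0.28, adjusted p = 0.00024). C6, a complement component, had -1.09 (SE 0.14, edgeR adjusted p = 0.002) and -1.76 (SE 0.14, adjusted p = 2e-05). Cyp2d9, a male-typical cytochrome P450, had -0.65 (SE 0.12, edgeR adjusted p = 0.0138) and -1.0 (SE 0.12, adjusted p = 0.000572), and Mup21, a major urinary protein of a family whose members share reads, had -1.71 (SE 0.29, adjusted p = 0.0177) and -2.54 (SE 0.30, adjusted p = 0.00166). Elovl3 and Cspg5, also on the list, had log2 fold changes of 0.18 and -0.13 at regular fat and were not called. Of 12 tested female-biased genes, 2 were called higher in each comparison, against 0.600% and 1.01% of all genes, and 0 lower. These were Cyp17a1 in both, Cyp4a10, also a target of the fatty acid receptor PPAR-alpha, at regular fat (2.17, SE 0.42, edgeR adjusted p = 0.0408) and Fmo1 at high fat (0.46, SE 0.11, edgeR adjusted p = 0.0401). Without the 2 libraries with adrenal signal, 6 and 9 male-biased genes were called lower and 1 and 1 female-biased genes higher.

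Of 13 tested genes of growth hormone signaling, Ghr, the growth hormone receptor, was called lower in both comparisons, from 514 ± 34.3 to 324 ± 29.1 normalized CPM at regular fat (SD, n = 3, log2 fold change -0.66, SE 0.099, edgeR adjusted p = 0.00481) and from 515 ± 40.3 to 294 ± 14.8 at high fat (-0.81, SE 0.099, adjusted p = 0.000761). Igf1, its circulating effector, had -0.35 (SE 0.11, edgeR adjusted p = 0.158) and -0.40 (SE 0.11, adjusted p = 0.0958) and was not called, and Stat5b, its transcription factor, had 0.23 and 0.28 and was not called. The medians of the 13 genes were -0.18 and -0.19, and -0.07 and -0.27 without both mice with adrenal signal, with 1 gene called lower in each comparison. Over all 97 tested genes of these lists, 3 were called higher and 11 lower at regular fat and 6 higher and 16 lower at high fat. Of all genes 0.600% were called higher and 0.879% lower at regular fat, and 1.01% and 0.961% at high fat. Medians of the 97 genes were -0.15 and -0.22, against -0.001 over all genes.

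**Figure D5:**
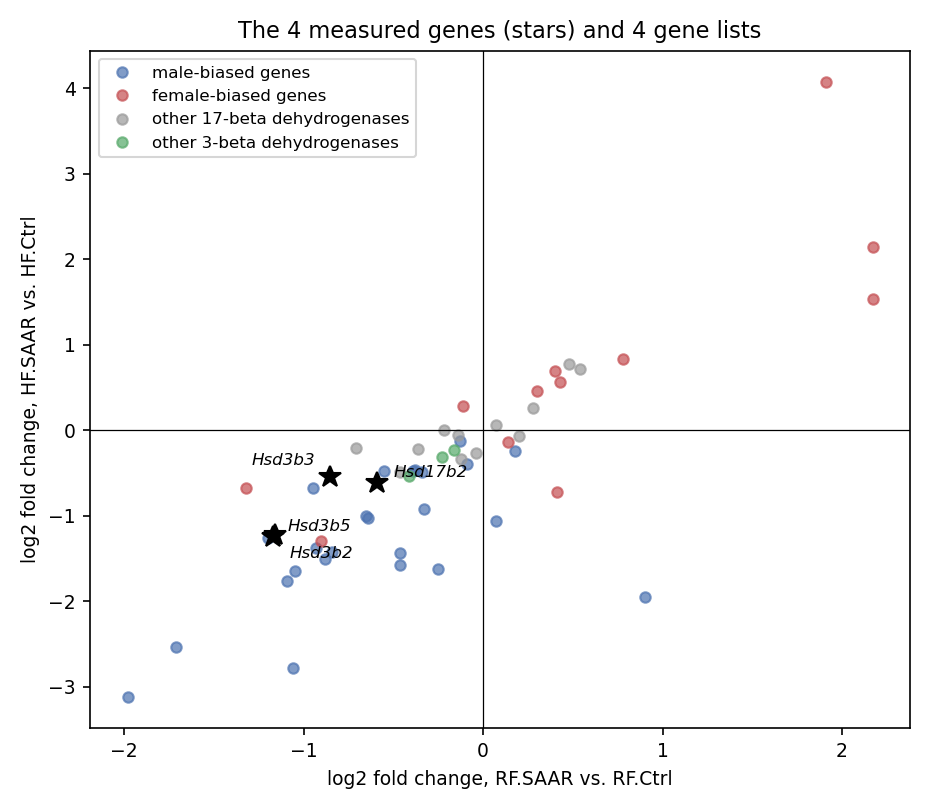
Log2 fold change at regular fat (x axis) and at high fat (y axis) of the 4 measured genes (stars) and of 4 gene lists (circles, 1 per gene). The stars of Hsd3b5 and Hsd3b2 nearly coincide at -1.17 and -1.25 and at -1.16 and -1.22, where male-biased genes also lie, while the other 17-beta dehydrogenases lie around the origin with medians of -0.08 and -0.06.

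Of 3 genes described near or overlapping the cluster, 0 were called lower. Phgdh, the first enzyme of serine synthesis, rose at high fat from 0.820 ± 0.487 to 5.34 ± 2.44 normalized CPM (SD, n = 3, log2 fold change 2.72, SE 0.49, edgeR adjusted p = 0.0132) and had 1.81 (SE 0.48, adjusted p = 0.0912) at regular fat. Wars2, beyond the Hsd3b1 end, was not called, with -0.02 and 0.34. Zfp697, which overlaps the cluster, had -0.92 (SE 0.27, edgeR adjusted p = 0.118) and -0.25 (SE 0.27, adjusted p = 0.789).

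For each measured gene the 3 genes whose pattern over the 12 mice was most like its own were found by the root mean square difference of mean-centred log2 CPM, a description of likeness for which no test is given. For Hsd3b5, whose own root mean square was 0.680, these were Lifr, the receptor of leukemia inhibitory factor, at 0.216, Aox3 at 0.293 and Nudt7 at 0.296. Lifr stood at 282 ± 36.9 and 326 ± 49.9 normalized CPM in RF.Ctrl and HF.Ctrl and at 150 ± 22.3 and 143 ± 35.3 in RF.SAAR and HF.SAAR (SD, n = 3). For Hsd17b2, with an own value of 0.323, they were Qsox1 at 0.0961, Cyp2f2 at 0.131 and Cdk5rap3 at 0.140. Those of Hsd3b3, with 0.387, were Stxbp6 at 0.140, F11, coagulation factor XI, at 0.142 and Lin7a at 0.143. Those of Hsd3b2, with 0.613, were Sulf2 at 0.218, Adgrv1 at 0.220 and Slc2a5, the fructose transporter, at 0.227. None of the 4 measured genes was nearer to another of the 4 than to these, with differences of 0.215 between Hsd3b3 and Hsd17b2 to 0.415 between Hsd3b5 and Hsd17b2. When only the deviations from the group means were compared, 0 of the 3 genes remained for each of the 4.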

How the data were processed

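RNA sequencing of poly(A)-selected liver RNA from 12 mice was analyzed. The authors trimmed reads with cutadapt and quantified transcripts of the Ensembl mouse annotation with kallisto. The deposited estimated counts per transcript are not normalized between mice, and the deposited TPM values are the same counts scaled by effective length. Transcripts were matched to GENCODE genes of GRCm38 (116816 of 118489, the rest holding 1.08% of counts), summed by gene and rounded. Depth was 16203094 to 21230092 counts per mouse, and errors are the spread between mice. Genes passing filterByExpr (14670) were fitted with edgeR 4.0.16 in R 4.3.3 (TMM, robust quasi-likelihood, all 12 mice, Benjamini-Hochberg, called at 0.05). DESeq2 1.42.0 was an alternative. The edgeR procedure was tested on simulated counts. Words and alignments were computed with Biopython 1.88.

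Groups follow the labels, in which the tags for diet and fat content hold each other's values. Mouse numbers within a group follow the order of deposit. The genes described and the lists, which were written from general knowledge, were chosen with earlier results of these data known. Named were all 7 genes, up to 4 called genes with the smallest p of each list and the 3 nearest genes of each measured gene. Genes next to the cluster, genes of a list that were not called, and markers were named outside this rule, after their values were seen. Leaving out the 2 mice with adrenal signal, or Hsd3b1 from the summed cluster, was added after seeing the data. Other alternatives changed the scaling, the filter, the effective length, the groups fitted, the tool, the summing by gene, the pancreatic markers and the mice. Hsd3b8 and Hsd3b9 were not analysed here.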

Additional observations from a re-analysis of the deposited data

How the results depend on the processing

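The log2 fold changes of the 4 measured genes kept their sign in both SAAR comparisons under all 23 alternatives, and the counts called changed as follows. At regular fat, of 4 genes called with SAAR, 2 were called after scaling by library size alone, 3 with the compared groups fitted alone, 3 without the 2 mice with adrenal signal, 1 when the most abundant transcript stood for its gene, and 2 to 4 when a mouse was left out. At high fat, of 4 genes called, 2 were called with the compared groups fitted alone, 3 with library size alone, 3 with offsets for effective length, 3 without those 2 mice, 1 with the most abundant transcript, and 1 to 4 when a mouse was left out. DESeq2, RLE size factors, other low-count filters, a pancreatic covariate and leaving out pancreatic markers left 4 called in both. Scaling by library size alone moved the median of all genes by 0.16 and 0.17 and gave Hsd3b3 -0.68 and -0.38 and Hsd17b2 -0.42 and -0.44. It also turned 88 higher and 129 lower calls over all genes into 359 and 66 at regular fat, and 148 and 141 into 639 and 80 at high fat. DESeq2 called 262 higher and 329 lower, and 316 and 279.

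Of the listed genes, 14 were called at regular fat, with 24 by DESeq2, 2 with the most abundant transcript, 9 without the 2 mice with adrenal signal and 6 to 14 without a mouse. At high fat 22 were called, with 14 in the compared groups alone, 37 by DESeq2, 11 with the most abundant transcript, 14 without those 2 mice and 12 to 25 without a mouse. DESeq2 called 4 in HF.SAAR vs. RF.SAAR and 2 in the interaction, where edgeR called 0. The cause of these changes was not tested. The interaction could not be had from compared groups alone. No paired analysis was made, since each group holds different mice and nothing in the labels pairs them.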
